A study of Homo sapiens with 6 samples.

Results

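Purine and pyrimidine nucleotide synthesis was followed in Huh7-R cells through 34 listed genes. They encode the enzymes of the de novo and salvage routes, the enzymes that make deoxynucleotides, and the enzymes that supply activated ribose or the last phosphate to both kinds of base. The members were taken by gene symbol, and 33 of the 34 were among the 16305 genes in the tables: 13 of purine steps, 8 of pyrimidine steps, 9 of deoxynucleotide steps and 3 of 4 shared by these routes. PRPS2, the second gene for the ribose donor enzyme, was not analysed here.

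Huh7-R (Huh7SR in the labels) is a pool of cells that withstands the kinase inhibitor sorafenib, derived from Huh7, a line of human liver cancer cells. RNA was sequenced from 3 samples given fostamatinib, an inhibitor of spleen tyrosine kinase, and from 3 given the solvent DMSO, each for 24 h. The labels write 2 µM for both agents. Every sample was of the resistant pool, and the labels do not say whether the triplicates were separate cultures, so p-values measure the spread between these samples, which may be technical. The values are log2 CPM, in which CPM is a gene's read count divided by the scaled size of its library, and the depth was 13303451 to 15272737 reads on the genes kept. The 8 hepatocyte markers were all detected, with a summed level of 4251 to 4598 CPM in DMSO and 6259 to 6627 CPM in fostamatinib samples. By the test given below, 8 of 8 were higher after fostamatinib, beside 23.3% of all genes. Of 6 markers of blood, endothelial and stromal cells, 4 were in the tables, none of them at 0 in either group. Their sum was 154 to 160 CPM in DMSO and 199.9 to 208 CPM in fostamatinib, and COL1A2 held most of it. Of these 4 markers 3 were higher, beside the same 23.3% of all genes. The part of these markers in the results below was not tested.

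Cells build purine rings stepwise on activated ribose (PRPP) and reach inosine monophosphate (IMP), from which the adenine and guanine nucleotides branch. The pyrimidine ring is closed first and then joined to the same ribose donor to give uridine monophosphate, the source of the cytidine nucleotides. Ribonucleotide reductase turns ribonucleotides into the deoxynucleotides that DNA replication consumes, thymidylate is made in a separate methylation step, and salvage enzymes return free bases and nucleosides to all of these pools. Many of these genes are known targets of MYC, which binds E-box sequences, or of E2F factors, which act at the entry into S phase.

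Most nucleotide synthesis genes were lower after fostamatinib. In limma's linear model with Benjamini-Hochberg adjustment over 16305 genes, 24 of the 33 members fell, 1 rose (SAMHD1) and 8 did not pass an adjusted p of 0.05. Over all genes 47.8% passed, 24.5% as lower and 23.3% as higher. The median log2 fold change, fostamatinib minus DMSO, was -0.46 over the 33 members and 0.00 over all genes. An adjusted p under 0.05 together with a fall of at least 0.5 on the log2 scale was found for 14 members, against 9.68% of all genes. Every fostamatinib sample lay below every DMSO sample for 25 of the 33 members, which holds for 27.4% of all genes. Together the members held 2829, 2903 and 2908 CPM in DMSO and 2157, 2107 and 2086 CPM after fostamatinib, a percent change of -26.5%, and the groups did not overlap. The RNA came from whole cultures, so fewer cells in a given phase or state and less RNA per cell cannot be told apart. The smallest adjusted p-values below rest on the spread that limma pools over all genes (33.87 degrees of freedom in the median gene).

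**Figure D1:**
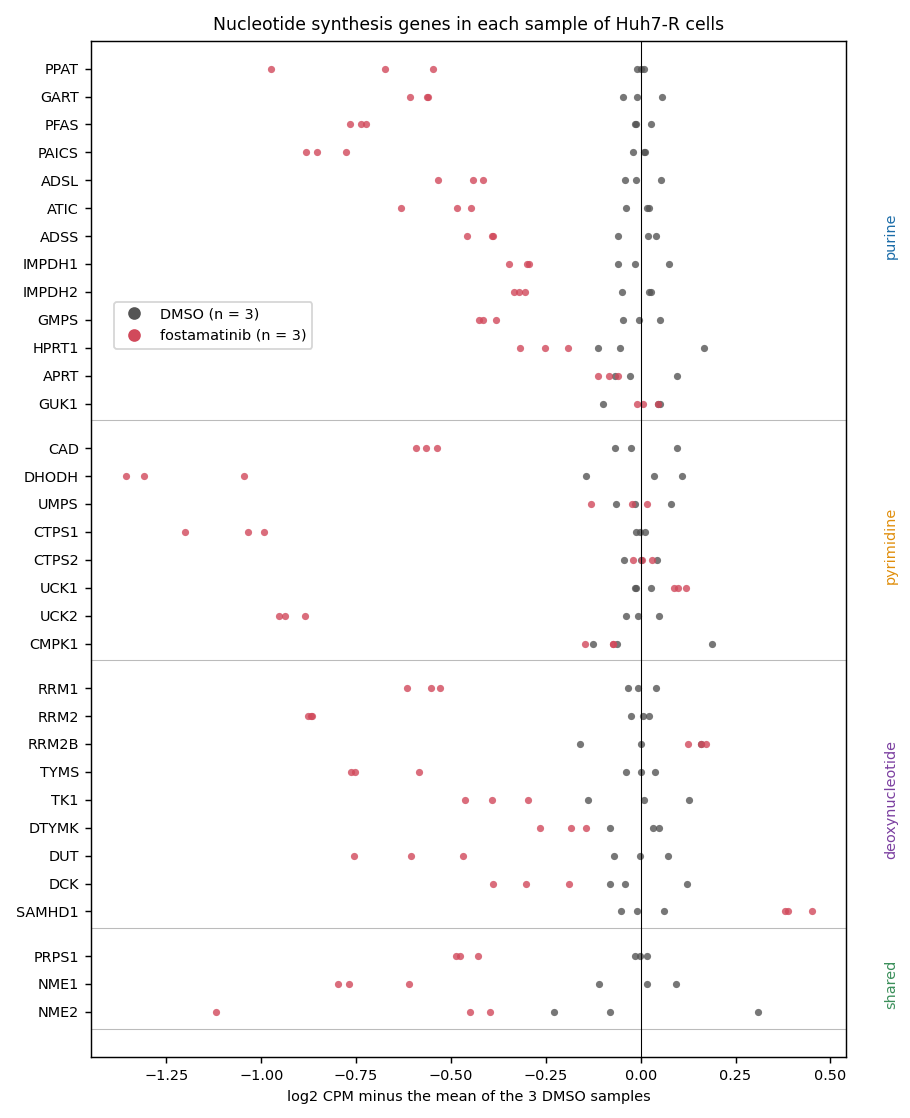
Each row is 1 gene and each point 1 sample, placed by its log2 CPM minus the mean of the 3 DMSO samples, with grey for DMSO and red for fostamatinib and with the genes grouped by route. In 25 rows all 3 red points lie left of all 3 grey points, and in the rows of SAMHD1 and UCK1 they lie to the right.

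The de novo purine route fell in all of its 6 genes, beside 24.5% of all genes, with a median log2 fold change of -0.65. Of the 6, 5 fell by at least 0.5 on the log2 scale, beside 9.68% of all genes. PPAT (ENSG00000128059, chr4:57259528-57301781 of GRCh37, minus strand) encodes the amidotransferase that commits PRPP to purines. Its log2 CPM was 4.74, 4.76 and 4.75 in DMSO and 3.78, 4.20 and 4.08 after fostamatinib. The 3 DMSO samples were nearly equal and fostamatinib replicate 1 was the lowest, without overlap of the groups. The log2 fold change of PPAT was -0.73 (SE 0.0892, limma adjusted p = 1.49e-08). PAICS (ENSG00000128050, chr4:57301907-57330744, plus strand) carries both the carboxylation and the following condensation with aspartate. It had 7.39, 7.42 and 7.41 log2 CPM in DMSO and 6.63, 6.52 and 6.55 after fostamatinib. This was the strongest fall of the purine members, at -0.84 (SE 0.0446, adjusted p = 1.32e-17 in limma), or a percent change of -44.0%.

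GART (ENSG00000159131, chr21:34876238-34915797, minus strand) carries 3 of the enzyme activities of the route on 1 protein, among them the first transfer of a formyl group from folate. Its log2 CPM was 7.24, 7.35 and 7.28 in DMSO and 6.73, 6.73 and 6.68 after fostamatinib, a fall by 0.58 on the log2 scale (SE 0.0446, limma adjusted p = 3.04e-13). PFAS (ENSG00000178921, chr17:8150936-8173809, plus strand) adds an amino group from glutamine and had 5.86, 5.90 and 5.86 log2 CPM in DMSO and 5.11, 5.15 and 5.13 after fostamatinib. Its samples lay within a narrow band in each group, and the fall was -0.74 (SE 0.0583, limma adjusted p = 4.71e-13). ATIC (ENSG00000138363, chr2:216176679-216214496, plus strand) performs the second formyl transfer and closes the ring to IMP. It stood at 7.39, 7.44 and 7.44 log2 CPM in DMSO and at 6.98, 6.94 and 6.79 after fostamatinib, where replicate 3 was the lowest. The log2 fold change of ATIC was -0.52 (SE 0.0467, limma adjusted p = 1.32e-11). ADSL, the lyase that acts both in this route and in the step from IMP to AMP, fell less, by 0.46 on the log2 scale (SE 0.0517, limma adjusted p = 2.23e-09). The 6 genes together held 659, 687 and 672 CPM in DMSO and 444, 442 and 421 CPM after fostamatinib, a percent change of -35.2%.

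PPAT and PAICS lie head to head on chromosome 4. In RefSeq (GRCh38.p14) the start of PPAT and 1 of the 3 starts of PAICS are 137 bases apart, with 136 bases between them at chr4:56435616-56435751. Windows of 250 bases before to 50 bases after a gene's start, 1 or more per gene, were at hand for 31 of the 34 listed genes, without ADSL, IMPDH2 and RRM2B. They were searched for the E-box CACGTG, a palindrome that reads the same on both strands, for 2 forms of an E2F motif (TTTCCCGC and TTTGGCGC, either strand) and for CCAAT (either strand). The first sequence below is the interval between PPAT and PAICS on the plus strand, which holds none of these letters. The second is the 30 bases around 1 E-box, shared by the windows of both genes, at chr4:56435780-56435809 on the minus strand, as PPAT is read, with the E-box in capitals. The third is the 100 bases before the start of ATIC, chr2:215311959-215312058, plus strand, with its E-box in capitals. They are shown because these 3 of the 6 de novo genes have an E-box in the window.
PPAT-PAICS: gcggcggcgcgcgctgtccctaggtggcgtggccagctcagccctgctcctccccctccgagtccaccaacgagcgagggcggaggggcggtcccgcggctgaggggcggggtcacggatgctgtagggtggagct
PPAT-PAICS E-box: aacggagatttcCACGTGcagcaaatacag
ATIC: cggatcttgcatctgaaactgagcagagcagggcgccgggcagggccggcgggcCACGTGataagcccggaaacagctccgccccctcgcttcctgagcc
An E-box stood in at least 1 window of 6 of the 31 genes (19.4%) and of 8.77% of 27305 genes of the same table. These 27305 genes were not limited to those measured here, and the shares were not tested. The E-box shared by PPAT and PAICS was counted for each. The 6 genes were PPAT, PAICS, ATIC, DHODH, DCK and NME1, all of them among the 22 fallen members with a window. None of the 8 tested members that had a window and did not fall held one, which says only that these letters are not in this window. A match is a description of the letters and no evidence of binding.

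The 4 genes that take IMP to AMP and GMP fell as well, beside 24.5% of all genes. Each fell by less than 0.5 on the log2 scale, with a median of -0.36. ADSS, which joins aspartate to IMP on the adenine branch, had a log2 fold change of -0.41 (SE 0.0521, limma adjusted p = 3.02e-08). GMPS, which aminates xanthosine monophosphate to GMP, changed by -0.41 (SE 0.0459, limma adjusted p = 2.69e-09). IMP dehydrogenase, the entry to the guanine branch, has a gene pair. IMPDH1 (ENSG00000106348, chr7:128032331-128050040, minus strand) had 7.48, 7.57 and 7.43 log2 CPM in DMSO and 7.20, 7.15 and 7.20 after fostamatinib, and fell by 0.31 on the log2 scale (SE 0.0435, limma adjusted p = 2e-07). IMPDH2 (ENSG00000178035, chr3:49061758-49066880, minus strand) had 7.28, 7.27 and 7.20 log2 CPM in DMSO and 6.92, 6.95 and 6.93 after fostamatinib, a log2 fold change of -0.32 (SE 0.0434, limma adjusted p = 1.24e-07). Neither gene's groups overlapped. A same-strand gene model of GENCODE 44 that is not among the rows used here covers 32.8% of the exon bases of IMPDH2. Counting was on GENCODE 22, and whether that version holds this model, and so could share reads with it, was not checked.

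The remaining purine members are 2 salvage enzymes of free bases and the guanylate kinase. HPRT1, which returns hypoxanthine and guanine to nucleotides, fell by 0.25 on the log2 scale (SE 0.0823, limma adjusted p = 0.0104). This call was lost without DMSO replicate 3, where the adjusted p was 0.0921, and without fostamatinib replicate 1, where it was 0.0522. APRT, its counterpart for adenine, had a log2 fold change of -0.08 (95% interval -0.19 to 0.02, limma adjusted p = 0.198). GUK1, the kinase of GMP and dGMP, stood at 0.01 (95% interval -0.09 to 0.12, limma adjusted p = 0.849). For both of these the groups overlapped.

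Among the 8 pyrimidine genes 4 fell, beside 24.5% of all genes, and 4 did not pass the test, with a median of -0.33. Each of the 4 that fell did so by more than 0.5 on the log2 scale, beside 9.68% of all genes. CAD (ENSG00000084774, chr2:27440237-27466811, plus strand) encodes the protein that joins the first 3 enzyme activities of the route. It had 6.45, 6.57 and 6.41 log2 CPM in DMSO and 5.94, 5.88 and 5.91 after fostamatinib, a fall by 0.56 on the log2 scale (SE 0.0529, limma adjusted p = 3.8e-11). DHODH (ENSG00000102967, chr16:72042487-72061563, plus strand), the mitochondrial dehydrogenase that oxidises dihydroorotate to orotate, showed the deepest fall of all members. Its log2 CPM was 3.51, 3.43 and 3.25 in DMSO and 2.04, 2.09 and 2.35 after fostamatinib, with 141 to 164 reads per DMSO sample and 56 to 67 reads per fostamatinib sample. The groups were far apart although the read numbers were low, and the log2 fold change was -1.24 (SE 0.136, limma adjusted p = 1.55e-09), or a percent change of -57.6%. UMPS, which turns orotate into uridine monophosphate as the next step after DHODH, changed by -0.05 (95% interval -0.17 to 0.08, limma adjusted p = 0.573), and its groups overlapped.

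The 200 bases before the start of DHODH in RefSeq, chr16:72008544-72008743 of GRCh38.p14 on the plus strand, are shown because DHODH fell the most. The capitals mark its E-box, 159 bases before the start, and a CCAAT, 22 bases before it.
DHODH: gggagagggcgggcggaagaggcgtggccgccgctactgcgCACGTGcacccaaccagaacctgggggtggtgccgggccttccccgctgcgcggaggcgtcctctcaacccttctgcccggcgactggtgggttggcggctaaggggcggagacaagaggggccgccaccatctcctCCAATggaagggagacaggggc
Of the 8 pyrimidine genes DHODH alone had an E-box in the window, and CAD, UCK2 and DHODH had a CCAAT. This motif stood in at least 1 window of 11 of the 31 genes (35.5%) and of 39.7% of all genes of the table.

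CTP synthase, which aminates UTP to CTP, has a gene pair whose members differed. CTPS1 (ENSG00000171793, chr1:41444972-41478237, plus strand) had 7.12, 7.15 and 7.14 log2 CPM in DMSO and 6.14, 6.10 and 5.94 after fostamatinib. It fell by 1.08 on the log2 scale (SE 0.0511, limma adjusted p = 5.53e-19), with all fostamatinib samples far below all DMSO samples. CTPS2 (ENSG00000047230, chrX:16606122-16731059, minus strand) had 6.48, 6.43 and 6.52 in DMSO and 6.51, 6.48 and 6.46 after fostamatinib. Its groups overlapped, and the difference of 0.00 had a 95% interval of -0.09 to 0.10 (limma adjusted p = 0.954). Uridine-cytidine kinase, the salvage enzyme for both nucleosides, gave a like picture. UCK2 (ENSG00000143179, chr1:165796851-165880855, plus strand) had 5.88, 5.97 and 5.91 log2 CPM in DMSO and 5.03, 4.98 and 4.97 after fostamatinib, a log2 fold change of -0.93 (SE 0.0596, limma adjusted p = 2.43e-15). UCK1 (ENSG00000130717, chr9:134399188-134406651, minus strand) had 5.02, 5.02 and 5.06 in DMSO and 5.12, 5.13 and 5.16 after fostamatinib. Every fostamatinib sample of UCK1 lay above every DMSO sample, but the difference of 0.10 did not pass the test (SE 0.0644, limma adjusted p = 0.199). CMPK1, the kinase of UMP and CMP, changed by -0.10 (95% interval -0.20 to 0.01, limma adjusted p = 0.114). Without DMSO replicate 2 the value for CMPK1 was -0.16 and passed the test, with a limma adjusted p of 0.0106.

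The 9 deoxynucleotide genes held 7 that fell, 1 that rose and 1 that did not pass, with a median of -0.38. Over all genes 24.5% fell and 23.3% rose. Of the 7, 4 fell by at least 0.5 on the log2 scale, beside 9.68% of all genes. Ribonucleotide reductase combines a large subunit, RRM1, with a small subunit that comes either from RRM2, known for its supply in S phase, or from RRM2B, known as a p53 target that serves cells outside S phase. RRM1 (ENSG00000167325, chr11:4115937-4160162, plus strand) had 7.87, 7.89 and 7.94 log2 CPM in DMSO and 7.37, 7.35 and 7.28 after fostamatinib, a log2 fold change of -0.57 (SE 0.0409, limma adjusted p = 5.49e-14). RRM2 (ENSG00000171848, chr2:10260825-10351851, plus strand) had 7.23, 7.26 and 7.28 in DMSO and 6.39, 6.39 and 6.38 after fostamatinib. Its 3 fostamatinib samples were almost equal, and it fell by 0.87 on the log2 scale (SE 0.0446, limma adjusted p = 4.59e-18). RRM2B (ENSG00000048392, chr8:103216730-103251189, minus strand) had 4.57, 4.73 and 4.89 in DMSO and 4.89, 4.85 and 4.90 after fostamatinib. The DMSO samples of RRM2B were spread widely and overlapped the fostamatinib samples, and the difference of 0.15 did not pass (SE 0.0763, limma adjusted p = 0.102). Without DMSO replicate 3 it was 0.23 and passed, with a limma adjusted p of 0.0112.

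All 4 genes of thymidylate supply fell, beside 24.5% of all genes, with a median of -0.50. TYMS (ENSG00000176890, chr18:657653-673578, plus strand) encodes thymidylate synthase, which methylates dUMP with a folate cofactor. It had 6.73, 6.77 and 6.81 log2 CPM in DMSO and 6.19, 6.02 and 6.01 after fostamatinib, a fall by 0.70 on the log2 scale (SE 0.0523, limma adjusted p = 1.21e-13). ENOSF1, on the opposite strand, overlaps 39.9% of the exon bases of TYMS, and the sources used here do not say whether strand was used in counting. The log2 fold change of ENOSF1 was 0.12 (SE 0.0649, limma adjusted p = 0.117), with 487 to 567 reads over the 6 samples. DUT (ENSG00000128951, chr15:48623208-48635570, plus strand), which removes dUTP and so yields dUMP, had 4.84, 4.99 and 4.91 log2 CPM in DMSO and 4.16, 4.45 and 4.31 after fostamatinib. Its fostamatinib samples differed more among themselves than the DMSO samples but stayed below them, at a log2 fold change of -0.61 (SE 0.0797, limma adjusted p = 6.18e-08). TK1, the thymidine kinase of cycling cells, fell by 0.38 on the log2 scale (SE 0.0637, limma adjusted p = 4.88e-06). DTYMK, the next kinase for thymidylate, had a log2 fold change of -0.20 (SE 0.0816, limma adjusted p = 0.0444), a call that was lost when any 1 sample other than DMSO replicate 2 was left out, with adjusted p-values of 0.0506 to 0.152.

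The sequences before the starts of RRM2, TYMS and DUT are shown because these 3 had the deepest falls of the deoxynucleotide genes. They are from RefSeq, GRCh38.p14, plus strand. For RRM2 they are 150 bases (chr2:10122589-10122738), with 3 copies of CCAAT in capitals. For TYMS they are 100 bases (chr18:657553-657652), with an E2F motif in capitals, read from the other strand. For DUT they are 100 bases (chr15:48332097-48332196), with both E2F forms in capitals. The sequence of DUT lies before 1 of its 4 starts and that of RRM2 before 1 of its 2 starts. The start of DUT was picked by hand and is not the leading one listed. Which motifs its other windows hold is not reported here.
RRM2: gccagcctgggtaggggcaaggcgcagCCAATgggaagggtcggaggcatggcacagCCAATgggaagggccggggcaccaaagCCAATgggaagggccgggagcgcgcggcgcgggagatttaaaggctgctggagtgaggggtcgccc
TYMS: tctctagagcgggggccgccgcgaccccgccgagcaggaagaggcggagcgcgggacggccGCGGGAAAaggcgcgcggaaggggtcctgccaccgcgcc
DUT: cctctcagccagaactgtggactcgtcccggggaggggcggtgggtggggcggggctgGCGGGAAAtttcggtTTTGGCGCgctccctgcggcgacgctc
Either E2F form stood in at least 1 window of 5 of the 31 genes (16.1%) and of 2.75% of all genes of the table. Here too the table was not limited to genes measured here, and the shares were not tested. The 5 genes were GART, TYMS, DUT, DCK and PRPS2, of which 4 fell and PRPS2 was not analysed. RRM2 held neither form in its windows, and the letters do not bear on whether a factor acts there.

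The last 2 deoxynucleotide genes act in salvage and in breakdown. DCK, the kinase that salvages deoxycytidine, had a log2 fold change of -0.29 (SE 0.109, limma adjusted p = 0.0259). This call was lost without DMSO replicate 3 (adjusted p = 0.114 in limma), without fostamatinib replicate 1 (0.0563) and without fostamatinib replicate 3 (0.105). SAMHD1, a hydrolase that splits deoxynucleoside triphosphates and is known for holding their level low outside S phase, was the only member to rise. Its log2 CPM was 4.13, 4.09 and 4.20 in DMSO and 4.53, 4.52 and 4.59 after fostamatinib, with all fostamatinib samples above all DMSO samples. The log2 fold change of SAMHD1 was 0.41 (SE 0.08, limma adjusted p = 6.05e-05), a percent change of 32.6%, and it passed the test whichever sample was left out, with adjusted p-values of at most 0.00109.

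PRPS1, which makes the ribose donor PRPP for purines, pyrimidines and salvage, fell by 0.46 on the log2 scale (SE 0.0539, limma adjusted p = 5.49e-09). Its log2 CPM was 6.08, 6.11 and 6.09 in DMSO and 5.66, 5.61 and 5.61 after fostamatinib. NME1 (ENSG00000239672, chr17:49230920-49239789, plus strand), a nucleoside diphosphate kinase, had 5.79, 5.71 and 5.59 log2 CPM in DMSO and 5.09, 4.90 and 4.93 after fostamatinib. It fell by 0.73 on the log2 scale (SE 0.0668, limma adjusted p = 2.47e-11). A readthrough gene model that joins NME1 and NME2 covers 18.7% of the exon bases of NME1, so reads could be shared with it. NME2 (ENSG00000243678, chr17:49242796-49249105, plus strand), the neighbouring gene for the same kind of enzyme, had 19, 16 and 14 reads in DMSO and 11, 7 and 11 after fostamatinib, or 0.50, 0.11 and -0.04 log2 CPM against -0.26, -0.93 and -0.20. The groups of NME2 did not overlap, but the difference of -0.66 did not pass (SE 0.356, limma adjusted p = 0.131). NME2 remains uncertain with so few reads. The same readthrough model covers 24.2% of its exon bases, and a copy, NME2P1, held a mean of 124.8 reads. Whether reads of NME2 were lost to either was not tested.

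Set side by side, 11 of 13 purine, 4 of 8 pyrimidine and 7 of 9 deoxynucleotide genes fell, beside 24.5% of all genes. The medians of -0.41, -0.33 and -0.38 were close, and no test of the difference between routes was made. Purine values ran from -0.84 to 0.01, with the de novo steps lowest and the IMP branches, salvage and kinase in turn nearer to 0. Pyrimidine values fell into 4 genes from -1.24 to -0.56 and 4 genes from -0.10 to 0.10, with no member between. Deoxynucleotide values ran from -0.87 for RRM2 to 0.41 for SAMHD1. The summed level of the purine genes was 1388 CPM ± 30.1 (SD, n = 3) in DMSO and 1026 CPM ± 14.0 (SD, n = 3) after fostamatinib, a percent change of -26.1%. For the pyrimidine genes it was 704 CPM ± 27.6 against 551 CPM ± 10.8 (SD, n = 3 each), or -21.7%. For the deoxynucleotide genes it was 667 CPM ± 14.1 against 458 CPM ± 9.86 (SD, n = 3 each), or -31.4%.

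The members of a gene pair can be compared within each sample by the log2 ratio of their CPM, in which the scaling of the library cancels. In 5 of the 6 planned pairs both genes were measured. The ratio of RRM2 to RRM2B was 2.66, 2.53 and 2.39 in DMSO and 1.50, 1.53 and 1.48 after fostamatinib, so that it differed by -1.02. CTPS1 to CTPS2 gave 0.65, 0.72 and 0.62 in DMSO and -0.36, -0.38 and -0.52 after fostamatinib, a difference of -1.08. UCK2 to UCK1 gave 0.86, 0.95 and 0.85 in DMSO and -0.09, -0.15 and -0.19 after fostamatinib, a difference of -1.03. None of these 3 pairs overlapped between the groups, and each had p = 0.1 in the exact two-sided permutation test, the smallest p that 3 against 3 samples allow, and 0.167 after Benjamini-Hochberg adjustment over 5 pairs. The ratio of IMPDH1 to IMPDH2 was 0.24 ± 0.0499 in DMSO and 0.25 ± 0.0449 after fostamatinib (SD, n = 3 each), overlapping throughout (exact permutation p = 1). NME1 to NME2 overlapped too, with a difference of -0.07 (exact permutation p = 0.9), and rested on the few reads of NME2.

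**Figure D2:**
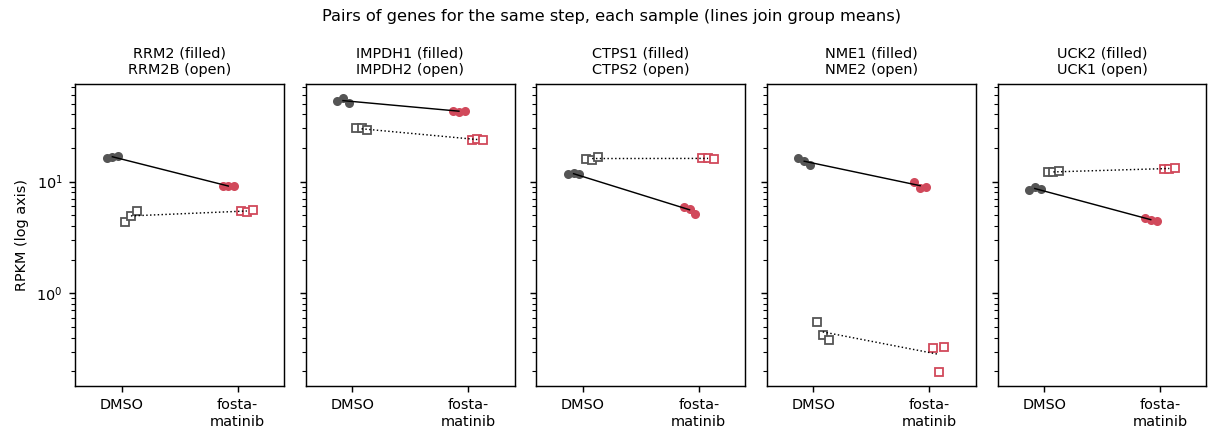
Each panel shows the level of 2 genes for 1 step in every sample, as RPKM (CPM per kilobase of exon) on a log axis, with filled circles for the first gene and open squares for the second, grey for DMSO and red for fostamatinib; lines join group means of 3 samples. The filled symbols drop in every panel, while the open symbols of RRM2B, CTPS2 and UCK1 stay near their DMSO level.

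Levels of different genes are compared per length as RPKM, the CPM of a gene divided by its length in kilobases, with all annotated exon bases of GRCh37 as the length. Genes with long, little-used exons come out low on this scale. In DMSO the order began with RRM1 at 56.4 ± 1.46, CMPK1 at 53.4 ± 6.29 and IMPDH1 at 53.1 ± 2.57 RPKM (SD, n = 3 each), which do not differ beyond their spread. ATIC at 45.3 ± 1.02, TYMS at 45.2 ± 1.21 and APRT at 40.3 ± 2.40 RPKM followed (SD, n = 3 each). The lowest members were SAMHD1 at 1.63 ± 0.0653, DHODH at 1.52 ± 0.135 and NME2 at 0.450 ± 0.0912 RPKM (SD, n = 3 each). After fostamatinib CMPK1 led with 49.7 ± 1.47 RPKM, IMPDH1 followed with 42.7 ± 0.875, and RRM1 came next with 38.1 ± 1.17 (SD, n = 3 each). CTPS2 stood above CTPS1 per length in DMSO, at 16.1 ± 0.478 against 11.8 ± 0.0998 RPKM, and after fostamatinib, at 16.1 ± 0.275 against 5.59 ± 0.419 RPKM (SD, n = 3 each). UCK1 likewise stood above UCK2, at 12.2 ± 0.195 against 8.66 ± 0.266 RPKM in DMSO and 13.1 ± 0.151 against 4.56 ± 0.111 RPKM after fostamatinib (SD, n = 3 each). By CPM, without the length, the order in DMSO was the reverse for both pairs. The mean log2 ratio there was 0.66 for CTPS1 to CTPS2 and 0.88 for UCK2 to UCK1. The lengths used were 11958 bases for CTPS1, 5531 for CTPS2, 6984 for UCK2 and 2684 for UCK1. Which gene of these pairs leads in DMSO therefore depends on the length taken. RRM2 stood above RRM2B in both groups, at 16.7 ± 0.277 against 4.93 ± 0.546 RPKM in DMSO and 9.12 ± 0.0363 against 5.45 ± 0.0925 RPKM after fostamatinib (SD, n = 3 each).

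**Figure D3:**
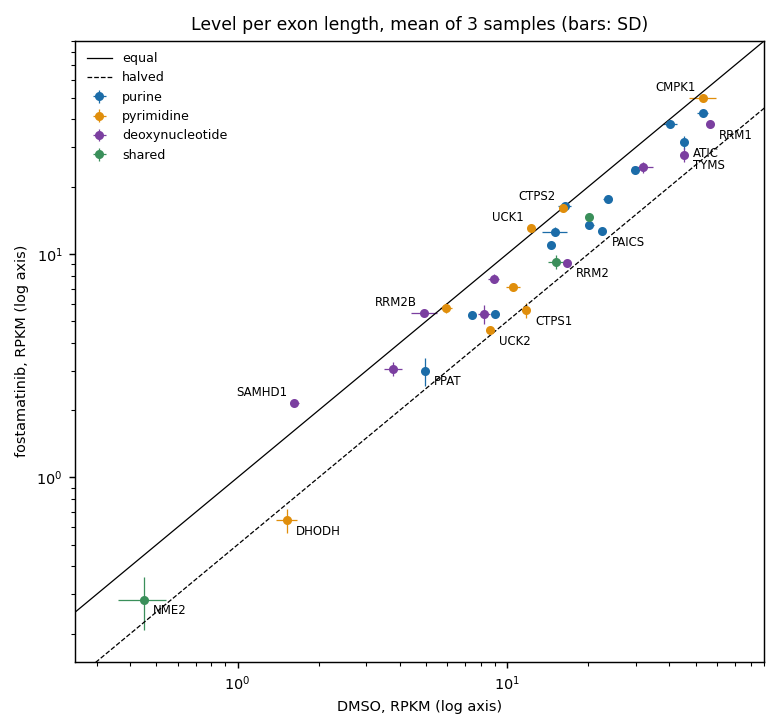
Each point is 1 gene, with its mean RPKM over 3 DMSO samples on the horizontal log axis and over 3 fostamatinib samples on the vertical log axis, bars for the SD and colours for the route. Most points lie between the solid line of equal level and the dashed line of a halved level, and DHODH and CTPS1 lie below the dashed line. SAMHD1, RRM2B and UCK1 lie above the solid line, and CTPS2 and GUK1 lie almost on it.

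Genes around these routes gave falls and rises. Of 65 further genes listed for purine, pyrimidine and deoxynucleotide metabolism, nucleotidases, nucleoside transporters and cytosolic folate, 50 were tested, of which 18 fell, 8 rose and 24 did not pass, with a median of -0.12; over all genes 24.5% were lower and 23.3% higher, and the lists were not tested against the members. The other purine genes gave 7 lower and 3 higher of 18, the other pyrimidine genes 2 lower and 1 higher of 6, and the other deoxynucleotide genes 2 lower and 1 higher of 9. Nucleotidases, which strip the phosphate again, gave 3 lower and 0 higher of 5. Among nucleoside transporters 2 were lower and 1 higher of 4. The higher one was SLC29A4, a plasma membrane transporter of monoamines and adenosine, with 4.69, 4.70 and 4.53 log2 CPM in DMSO and 5.76, 5.61 and 5.64 after fostamatinib, a rise of 1.03 on the log2 scale (SE 0.0675, limma adjusted p = 3.93e-15). Cytosolic folate genes, which serve GART, ATIC and TYMS, gave 2 lower and 2 higher of 8.

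Of these lists, 2 folate genes and 2 others are named here after their values were seen. MTHFD1, which makes the formyl folate used by GART and ATIC, fell by 0.78 on the log2 scale (SE 0.0534, limma adjusted p = 1.06e-14). SLC19A1, the reduced folate carrier, fell by 0.79 (log2 fold change -0.79, SE 0.0856, limma adjusted p = 1.18e-09). UPP1, a uridine phosphorylase, fell by 0.98 on the log2 scale (SE 0.0644, limma adjusted p = 3.79e-15). DCTPP1, which hydrolyses deoxycytidine triphosphate, fell by 0.71 on the log2 scale (SE 0.078, limma adjusted p = 1.38e-09).

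A list of 15 genes of S phase and the cell cycle moved in the same samples. Of these, 13 fell, beside 24.5% of all genes, with a median log2 fold change of -1.06 over the list. CCNA2, named after its values were seen, fell the least of the 13, at -0.17 (SE 0.0475, limma adjusted p = 0.00354). The deepest falls were CCNE2, a cyclin of S phase entry, at -1.77 (SE 0.129), MCM5, a subunit of the replicative helicase, at -1.55 (SE 0.0714), E2F1 at -1.47 (SE 0.0713) and MCM6, another helicase subunit, at -1.39 (SE 0.0494), with limma adjusted p-values of 6.61e-14, 2.32e-19, 1.05e-18 and 1.57e-22. The remaining 2 are named after their values were seen. MKI67, a marker of cycling cells, had a log2 fold change of 0.04 and did not pass (SE 0.0348, limma adjusted p = 0.373). TOP2A, a topoisomerase of late S phase and mitosis, stood at 0.10 (SE 0.0358, limma adjusted p = 0.0174), a call lost without a mean-variance trend and without any 1 of DMSO replicates 1 and 2 and fostamatinib replicates 1 and 2. The summed level of the 15 genes was 2325 to 2349 CPM in DMSO and 1722 to 1773 CPM after fostamatinib. The part of a shift in the cell cycle in the levels of the nucleotide synthesis genes was not tested.

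**Figure D4:**
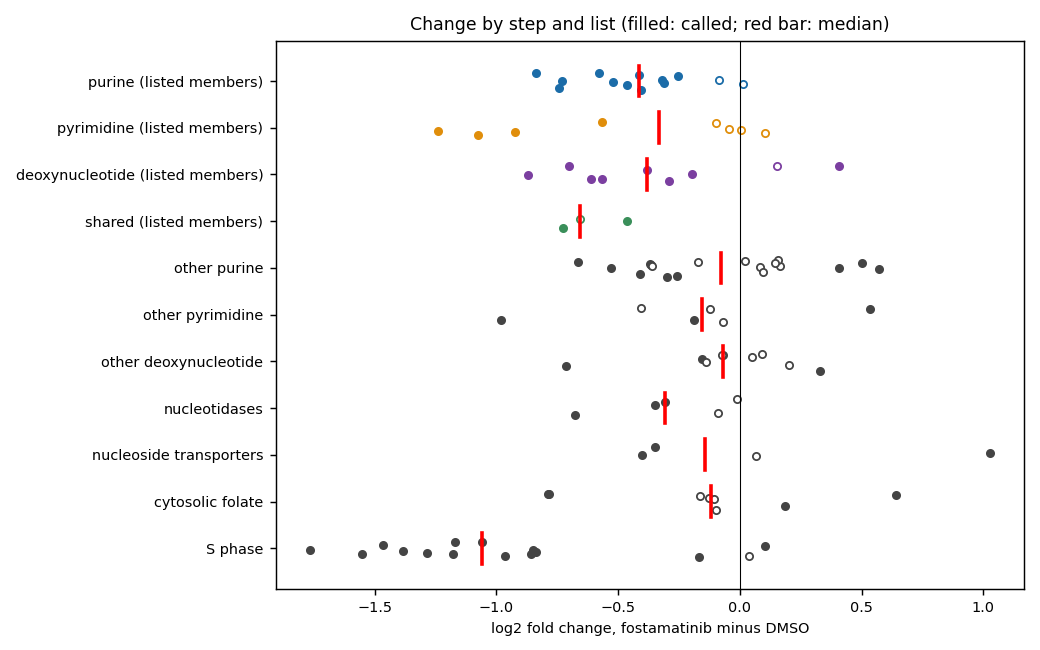
Each point is 1 gene, placed by its log2 fold change between 3 fostamatinib and 3 DMSO samples, filled where limma's adjusted p was under 0.05, with a red bar for the median of its row. The 4 rows of listed members have medians from -0.66 to -0.33, the 6 rows of other pathway genes from -0.31 to -0.07, and the S phase genes -1.06.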

How the data were processed

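RNA-Seq of Huh7-R cells was available for 3 samples per group, assigned from the labels. HISAT (alignment to hg19) and featureCounts (counting on GENCODE 22) were used by the authors, with versions not given in the sources used here. The authors dropped genes under 5 reads in 2 or more of the 3 samples of each group and scaled the rest by TMM. The deposited values are log2 CPM with an offset of 0.5 on each count. Of 16311 rows, 6 repeats of 1 gene were dropped. Reads recovered from the values were whole within 0.05 for 100% of values. The fit was made with limma 3.58.1 (R 4.3.3, lmFit and eBayes with trend) on the log2 values of 16305 genes, with a term for treatment alone and adjustment by Benjamini-Hochberg; genes were called at an adjusted p under 0.05. The offset understates fold changes of genes with few reads. The 3 samples per group limit precision, and depth was 13303451 to 15272737 reads. Gene pairs were compared by an exact permutation test (scipy 1.17.1). Scripts were tested on simulated data. Gene positions and lengths are from GENCODE 44 on GRCh37; promoter sequences are from RefSeq, GRCh38.p14. Values in every sample are given for members past the threshold with a log2 fold change of at least 0.5 in size and for both genes of a pair; of the other pathway and S phase lists, genes past the threshold and past 1 in size, at most 4 per list, are named, and cell type markers are given by sums and counts. Some genes of the other lists are not reported here. The members and lists were chosen with earlier results of these data known. Alternatives were eBayes without trend, limma-voom, other scalings, offset and filters, the replicate number as a block, a threshold of 1 expected false positive, and omission of each sample.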

Additional observations from a re-analysis of the deposited data

How the results depend on the processing

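The number of nucleotide synthesis genes called lower was 21 to 25 under all alternatives run, those without 1 sample included, against 24. The number called higher was 1 to 2, the second being RRM2B without DMSO replicate 3. With a threshold of 1 expected false positive, 2244 of all genes were lower and 1892 higher, and 11 of the other pathway genes were lower, since the threshold is stricter. Direction turned for members near 0: GUK1 ran from -0.0353 to 0.0398 when 1 sample was left out, CTPS2 from -0.0174 to 0.0254, and CTPS2 was -0.00706 with library size alone. The change in the ratio of IMPDH1 to IMPDH2 ran from -0.0148 to 0.0341 and that of NME1 to NME2 from -0.266 to 0.0803 when 1 sample was left out. The other 3 ratios kept their sign in all 7 alternatives run for them. HPRT1 and DTYMK lost their call without the mean-variance trend, with adjusted p-values of 0.0737 and 0.0514, and HPRT1, DTYMK and DCK lost it with 1 expected false positive. Scalings other than TMM moved the median of all genes by 0.00 and -0.01 on the log2 scale.

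The groups share replicate numbers, but samples of the same number hardly deviated together over all genes (correlations of 0.0187, 0.0111 and 0.00803). These values include genes with few reads, and whether samples of the same number were handled together was not tested. With the replicate block 25 members were lower and 1 higher, 5 pyrimidine genes were lower, and over all genes 4098 were lower and 3879 higher. CMPK1 was the member that gained a call under the block, at -0.10 with an adjusted p of 0.0395. NME2 had the fewest reads of the members, 7 to 19 per sample.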
